A study of Mus musculus with 2 samples.

Results

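The genes described here are 35 type I interferon stimulated genes, listed by name with no measured value in the rule, though earlier results of these data were known when the list was made, of 32285 genes in the tables. *Mx1* was not analysed here, and the other 34 were measured in both libraries. AMs are the macrophages that reside in the airspaces of the lung. They were isolated by FACS from the lungs of C57BL/6 mice with an age of 10 weeks in the labels and measured by droplet scRNA-seq. Control-AM came from mice given vehicle, and Tumor-AM came from mice with LLC cells, a mouse lung carcinoma line, implanted into the left lung. There was 1 library per condition, and the methods state that tumor-bearing and control mice were bred separately, so condition, library and breeding cannot be told apart. Each barcode was assigned to the condition of the table that held it. The methods also describe hashtag reads as a guide to the sample of a barcode, which were not used here, and the number of animals per library is not given in the sources used here. Cells of 1 library are not replicates, and no test between the conditions was made. All intervals are exact 95% intervals that cover counting error only. The level that a count of 0 allows is given as that of 3 UMIs, which is not an exact limit.

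Barcodes with at least 500 detected genes and at most 10% mitochondrial UMIs were used. These were 6185 of 8485 control barcodes, with 64850143 UMIs and a median of 10370 UMIs per cell, and 7666 of 9175 tumor barcodes, with 68801889 UMIs and a median of 8264. The 12 AM markers, among them *Chil3*, *Siglecf* and *Pparg*, were all detected and together made up 18155 UMIs per 1000000 (CPM) in control and 15840 CPM in tumor. *Chil3* alone was at 11656.5 and 10518.9 CPM. Some others were much lower in tumor, such as *Marco* (585.1 and 206.7 CPM), *Ear1* (515.6 and 286.0) and *Car4* (251.5 and 146.8). *Plet1*, *Fabp4* and *Atp6v0d2* were slightly higher. Markers of some other cells differed between the libraries. The 5 interstitial macrophage markers summed to 11.2 CPM in control and 85.2 CPM in tumor, the 5 monocyte markers to 6.77 and 54.1 CPM, and the 5 fibroblast markers to 0.71 and 31.7 CPM, while 6 epithelial markers were lower in tumor (16.3 CPM) than in control (74.05 CPM). Of the plasmacytoid dendritic cell markers, *Siglech* and *Klk1* were at 0 in both libraries. By their markers, 19 control and 41 tumor barcodes were of other cell types, and 21 of the tumor ones had interstitial macrophage markers. Of all barcode sequences, 25 occurred in both tables. Leaving out either set kept the number of members with a 2-fold difference at 25, the count described further on. Without the shared barcode sequences no member's ratio left its interval, and without the other cell types 2 did, *Ifitm3* and *Ly6a*.

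Type I interferons bind the receptor of *Ifnar1* and *Ifnar2* and activate the kinases JAK1 and TYK2. These phosphorylate transcription factors, STAT2 among them, which act with IRF9 and bind a short DNA element, the interferon stimulated response element, upstream of the responding genes. The products of these genes sense viral nucleic acid, cut or alter RNA, block translation or hold virions at the membrane. IRF7, itself a product of the response, increases further interferon production. AMs are known as a main source of type I interferon in respiratory virus infection.

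The 250 bases before the start site were available from RefSeq (GRCm38.p6) for 25 of the 35 members. The core of the response element, GAAA, any 2 bases and GAAA on either strand, was in this window in 9 of 25 members (36%) and in 936 of 27025 genes (3.46%). The gamma activated site, TTC, any 3 bases and GAA on either strand, was in 6 of 25 (24%) and in 8.13% of all genes. *Isg15* held 3 overlapping copies of the core. *Ifit1*, *Ifit3*, *Bst2* and *Oas1a* held 2 each, and *Oas3*, *Rsad2*, *Stat2* and *Trim30a* held 1. Windows are shown for 6 of the members that had an entry and were at least 2-fold higher in tumor with at least 10 UMIs in each library. Of these, *Ifit2*, *Isg15* and *Ifit1* had the largest share of their excess in the cells that detected many members, and *Irf9*, *Stat2* and *Xaf1* the smallest. This share, described with the results by cell, served only to choose the windows. Each window runs 5′ to 3′ on the strand of the gene and ends at the base before the start site, and capitals mark the response element core, in *Ifit1* and *Stat2* as its reverse complement.
*Ifit2* promoter, chr19:34550444-34550693 (+ strand): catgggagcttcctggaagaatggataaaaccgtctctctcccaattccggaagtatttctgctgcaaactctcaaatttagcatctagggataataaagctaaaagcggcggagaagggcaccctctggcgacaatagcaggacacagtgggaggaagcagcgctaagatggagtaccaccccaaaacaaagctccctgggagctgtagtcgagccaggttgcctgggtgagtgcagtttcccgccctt
*Isg15* promoter, chr4:156200819-156201068 (- strand): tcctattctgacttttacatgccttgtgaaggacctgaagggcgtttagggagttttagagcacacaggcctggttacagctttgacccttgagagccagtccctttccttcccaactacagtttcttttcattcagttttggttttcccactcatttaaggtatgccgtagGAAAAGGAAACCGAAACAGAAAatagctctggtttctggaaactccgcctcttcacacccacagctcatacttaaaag
*Ifit1* promoter, chr19:34640639-34640888 (+ strand): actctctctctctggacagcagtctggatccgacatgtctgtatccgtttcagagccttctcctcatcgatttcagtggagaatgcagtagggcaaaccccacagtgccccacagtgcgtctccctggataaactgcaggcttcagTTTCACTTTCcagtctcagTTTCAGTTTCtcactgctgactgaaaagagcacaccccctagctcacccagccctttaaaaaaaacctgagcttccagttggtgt
*Irf9* promoter, chr14:55603735-55603984 (+ strand): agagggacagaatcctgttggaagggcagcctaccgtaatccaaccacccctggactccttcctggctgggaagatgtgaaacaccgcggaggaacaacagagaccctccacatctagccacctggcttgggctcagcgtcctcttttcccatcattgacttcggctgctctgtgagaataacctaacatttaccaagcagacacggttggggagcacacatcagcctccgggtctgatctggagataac
*Stat2* promoter, chr10:128270248-128270497 (+ strand): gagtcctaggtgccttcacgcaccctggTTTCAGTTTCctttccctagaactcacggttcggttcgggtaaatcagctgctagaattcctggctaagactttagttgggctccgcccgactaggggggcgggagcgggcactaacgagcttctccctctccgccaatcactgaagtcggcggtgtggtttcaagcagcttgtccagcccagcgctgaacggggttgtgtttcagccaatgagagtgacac
*Xaf1* promoter, chr11:72301379-72301628 (+ strand): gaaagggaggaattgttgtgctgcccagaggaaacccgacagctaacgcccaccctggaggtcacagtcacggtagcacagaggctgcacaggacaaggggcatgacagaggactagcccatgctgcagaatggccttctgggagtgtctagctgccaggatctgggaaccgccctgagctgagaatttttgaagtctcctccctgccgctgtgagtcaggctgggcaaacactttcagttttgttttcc
The nearest core began 66 bases before the start in *Isg15*, 85 in *Ifit1* and 222 in *Stat2*. *Ifit2*, *Irf9* and *Xaf1* had no match in these windows, which says only that these letters are not there.

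All 34 measured members were higher in Tumor-AM than in Control-AM. Of the 33 with at least 10 UMIs in each library, 25 (75.8%) were at least 2-fold higher in tumor, whereas the share of all 12936 genes tested was 4.3%. None was 2-fold lower, against 5.16% of all genes. The lower limit of the log2 ratio was above 0 for all 33 members, against 26% of genes, and the upper limit was below 0 for none, against 38.6%. The median log2 ratio of the members was 2.41 and that of all genes −0.07. The ratios ran from 0.19 for *Ifi35* to 5.18 for *Oasl2*, and 14 members were at least 8-fold higher, as were 0.727% of all genes. With CPM computed per cell and then averaged, in place of the sum over cells, 23 members were at least 2-fold higher and the median was 1.49, against 3.9% of all genes and a median of −0.07.

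**Figure D1:**
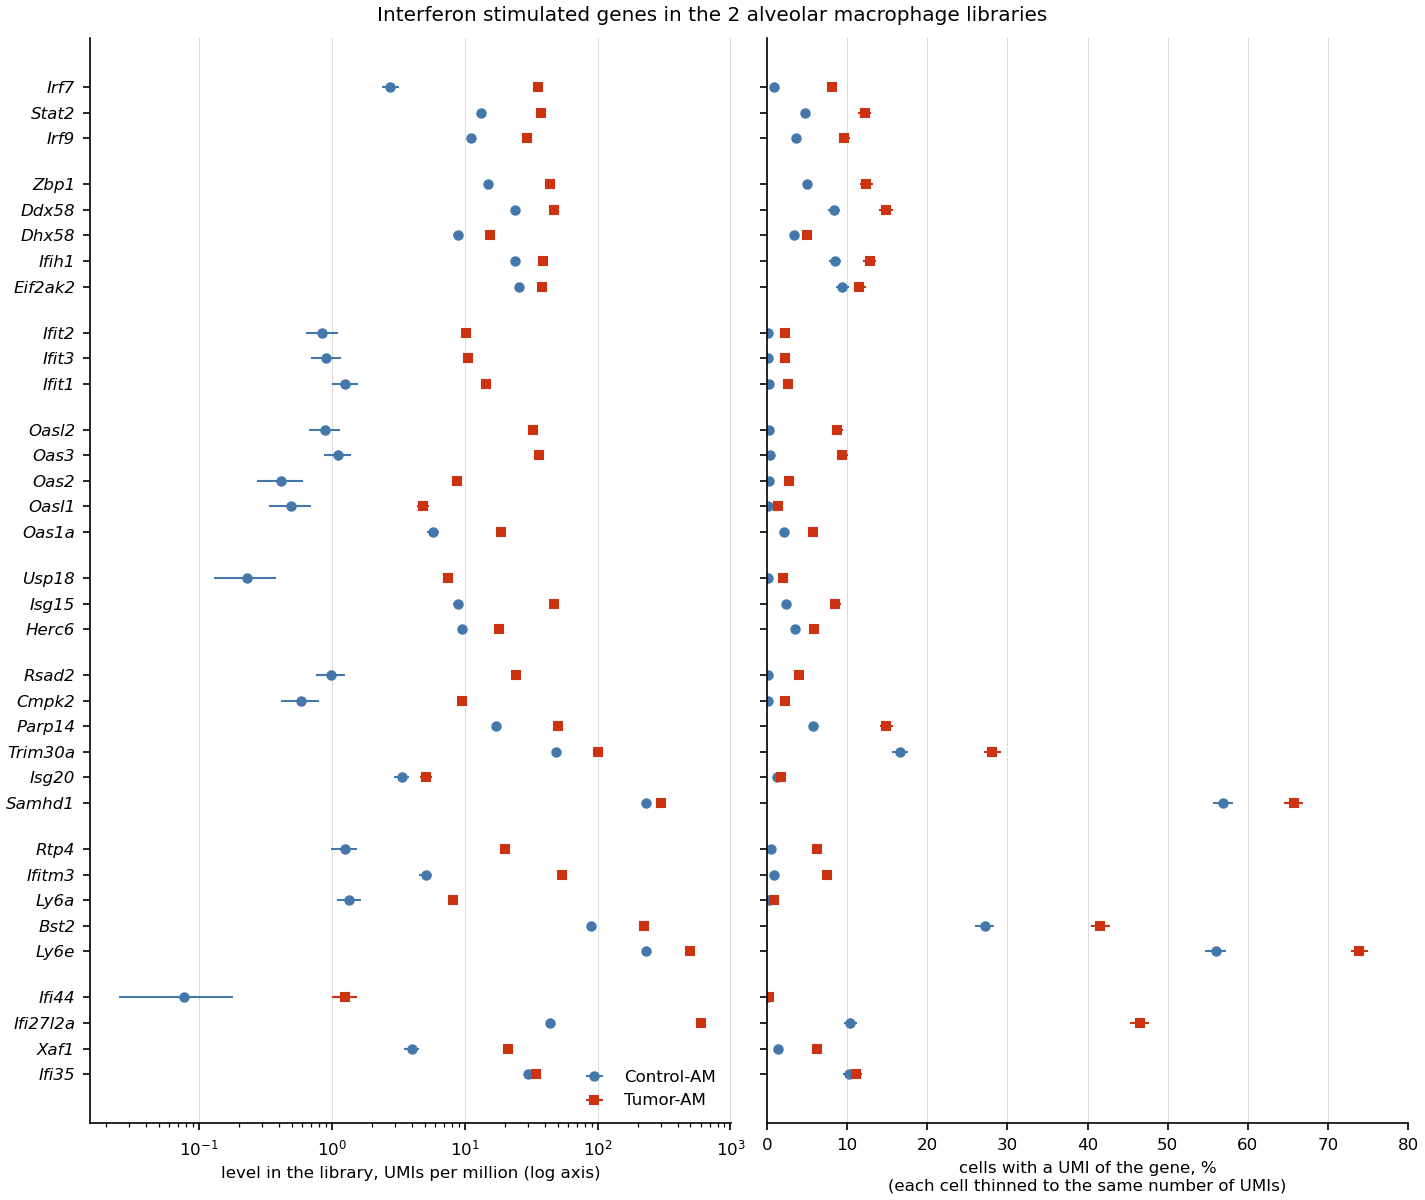
Left, level of each of the 34 members in UMIs per 1000000 UMIs of the library (log axis). Right, percent of cells with a UMI of the member after each cell was thinned to 3800 UMIs. Points are the 2 libraries, bars are exact 95% counting intervals, and genes are grouped by role. Every tumor point lies to the right of its control point, from *Ifi35* at 30.04 and 34.4 CPM to *Oasl2* at 0.89 and 32.5 CPM.

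The 3 transcription factors of the response were all at least 2-fold higher in tumor. *Irf7*, the amplifier of interferon production, was at 2.76 CPM (2.37 to 3.20) in control and 35.8 CPM (34.4 to 37.2) in tumor, a log2 ratio of 3.70 (3.48 to 3.92). *Stat2* was at 13.3 and 37.5 CPM, giving a log2 ratio of 1.5. *Irf9* was at 11.2 and 29.7 CPM, giving a log2 ratio of 1.40. *Irf7* thus had a larger ratio than its 2 partners in the list, and their intervals, 1.39 to 1.61 for *Stat2* and 1.28 to 1.53 for *Irf9*, overlapped. *Irf7* overlaps *Phrf1* in the annotation and *Irf9* overlaps *Rnf31*, the latter pair on the same strand, where reads could be shared, and the former on opposite strands.

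Of the 5 sensors of foreign RNA and DNA, 1 was at least 2-fold higher. This was *Zbp1*, which binds Z-form nucleic acid, at 14.8 CPM in control and 43.7 CPM in tumor, a log2 ratio of 1.56 (1.45 to 1.66). *Ddx58*, which encodes RIG-I, was at 24.1 and 46.8 CPM, giving a log2 ratio of 0.96 (0.87 to 1.05). *Dhx58*, a regulator of the RIG-I family, was at 8.87 and 15.5 CPM and had a log2 ratio of 0.81. The ratio was 0.70 for *Ifih1*, which encodes MDA5, and 0.58 for *Eif2ak2*, which encodes the kinase PKR. All 5 sensors were detected in thinned control cells, from 3.43% of cells for *Dhx58* to 9.39% for *Eif2ak2*, with *Zbp1* at 5.01%.

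The IFIT genes encode proteins that bind foreign RNA and lie next to each other on chromosome 19. All 3 had similar ratios. *Ifit1* was at 1.26 CPM (1.01 to 1.57) in control and 14.5 CPM (13.7 to 15.5) in tumor, *Ifit2* at 0.85 and 10.2 CPM, and *Ifit3* at 0.91 and 10.7 CPM. Their log2 ratios of 3.52, 3.59 and 3.55 differed by less than their intervals. *Ifit1* and *Ifit3* have near-identical neighbours, *Ifit1bl1* and *Ifit3b*, and their counts are uncertain where reads fit both copies.

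Some, but not all, proteins of the oligoadenylate synthetase family make the messenger that activates the nuclease RNase L. All 5 listed genes of the family were at least 2-fold higher. *Oasl2* was at 0.89 CPM (0.68 to 1.16) in control and 32.5 CPM (31.1 to 33.8) in tumor, 36.3-fold. By its ratio it had rank 10 among the 12936 genes tested. *Oas3* was at 1.11 and 36.2 CPM, giving a log2 ratio of 5.03 (4.69 to 5.39), and *Oas2* at 0.42 and 8.72 CPM, a ratio of 4.39. *Oasl1*, at 0.49 and 4.87 CPM, had a ratio of 3.30. *Oas1a* stood lowest of the 5 at 1.69 (1.52 to 1.86), from 5.81 and 18.8 CPM, and shares sequence with *Oas1g*.

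ISG15 is a ubiquitin-like protein that is joined to other proteins, HERC6 is the ligase in the mouse, and USP18 removes it and restrains the receptor. *Isg15* was at 8.85 CPM (8.14 to 9.61) in control and 47.1 CPM (45.5 to 48.7) in tumor, a log2 ratio of 2.41. *Usp18* rested on 15 control UMIs and 517 tumor UMIs, 0.23 and 7.51 CPM, a ratio of 5.02 (4.29 to 5.87). *Herc6* had a ratio of 0.92 (0.78 to 1.07), from 9.61 to 18.2 CPM. The effector genes were less alike. *Rsad2*, which encodes the antiviral enzyme viperin, was at 0.99 and 24.2 CPM and its neighbour on chromosome 12, *Cmpk2*, at 0.59 and 9.51 CPM, with ratios of 4.62 and 4.02. *Parp14*, an ADP-ribosyltransferase, was at 17.3 and 50.4 CPM (1.54), and *Trim30a* at 48.8 and 100.4 CPM (1.04). *Isg20*, an exonuclease, had a ratio of 0.61 (0.36 to 0.86). *Samhd1*, which breaks down deoxynucleotides, had 0.39 (0.36 to 0.43), from 229.7 CPM in control to 301.9 CPM in tumor.

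All 5 membrane and surface proteins were at least 2-fold higher. *Ly6e* was at 232.4 and 499.6 CPM (log2 ratio 1.10), and *Bst2*, which encodes the tether of virions named tetherin, at 89.1 and 221.7 CPM (1.31). *Rtp4*, a chaperone of membrane receptors, was at 1.25 and 20.2 CPM (4.02). *Ifitm3*, which blocks viral entry, was at 5.07 and 53.7 CPM (3.40), and *Ly6a*, the surface protein Sca-1, at 1.36 and 8.23 CPM (2.60). The last 2 rested on few control cells, 80 with a UMI of *Ifitm3* and 36 with a UMI of *Ly6a*. In tumor these were 1034 and 142 cells. The barcodes of other cell types held 58 of 88 control and 314 of 566 tumor UMIs of *Ly6a*, and 124 of 329 control and 818 of 3693 tumor UMIs of *Ifitm3*. Without these barcodes the ratio was 2.996 for *Ly6a* and 3.74 for *Ifitm3*. In the quartile of control cells with the fewest UMIs *Ifitm3* was at 28.3 CPM and *Ly6a* at 9.20 CPM, against at most 3.04 and 0.50 CPM in the other quartiles, and with each cell's own CPM averaged their ratios were 2.18 and 1.37. Of the remaining genes, *Ifi27l2a* went from 43.5 CPM (42.0 to 45.2) to 603.3 CPM, a ratio of 3.79 (3.74 to 3.85) on 2824 and 41506 UMIs. *Xaf1*, linked to apoptosis, had a ratio of 2.41, from 3.99 to 21.3 CPM. *Ifi44* had 5 control and 86 tumor UMIs, under the minimum for the counts. *Ifi35* was at 30.04 CPM (28.7 to 31.4) and 34.4 CPM (33.0 to 35.8).

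To see in how many cells the members were found, each cell was thinned to 3800 UMIs, which left out 595 control and 729 tumor cells with fewer. The share of cells with a UMI was higher in tumor for all 34 members, against 43.6% of 11604 genes, and the intervals were apart for 31, against 16.6%. *Ifi27l2a* was found in 10.4% (9.62 to 11.2) of 5590 control cells and 46.5% (45.3 to 47.7) of 6937 tumor cells. *Ly6e* was found in 56.0% and 73.9%, *Samhd1* in 56.9% and 65.7%, and *Bst2* in 27.2% and 41.6%. The 4 members with the largest ratios were each found in under 10% of tumor cells. *Oasl2* was in 0.27% (0.15 to 0.44) of control and 8.78% (8.12 to 9.47) of tumor cells, *Oas3* in 0.38% and 9.40%, *Usp18* in 0.072% and 1.95%, and *Rsad2* in 0.14% and 4.05%. Unthinned, these shares were 0.73% and 16.4% for *Oasl2* and 19.6% and 54.3% for *Ifi27l2a*. No cell type was taken as lacking these genes, and no share from free RNA was estimated. In barcodes under 500 genes, with medians of 727 and 715 UMIs, *Ifi27l2a* was in 1.44% of the control and 17.4% of the tumor barcodes. There *Ly6e* was in 4.31% and 7.92%, and *Oasl2* in 0% and 1.21%. Free RNA was not tested as a source.

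The cells differed in how many members they held. After thinning, a control cell had a median of 2 members detected (mean 2.41, SD 1.49) and a tumor cell 4 (mean 4.49, SD 3.12). No member was detected in 304 control cells and 110 tumor cells. At least 4 members were detected in 18% of control and 53.6% (52.4 to 54.8) of tumor cells. At least 10 were detected in 18 control cells (0.32%) and 519 tumor cells (7.48%, 6.87 to 8.13). The tumor distribution was thus both shifted as a whole and drawn out to high numbers, with no gap between them. The 99th percentile of control was 7 members. Above it lay 32 control cells (0.57%, 0.39 to 0.81) and 955 tumor cells (13.8%, 12.96 to 14.6). This class is a range and not a type of cell, since 386 tumor cells lay at 7 and 243 at 8 members. Its size also rested on 1 step of a whole number, because 7 or more members were found in 56 of 5590 control cells, close to 1%. From 7 members on, the tumor share was 19.3%, and over other seeds, filters and cuts it ran from 10.3% to 27.1%.

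**Figure D2:**
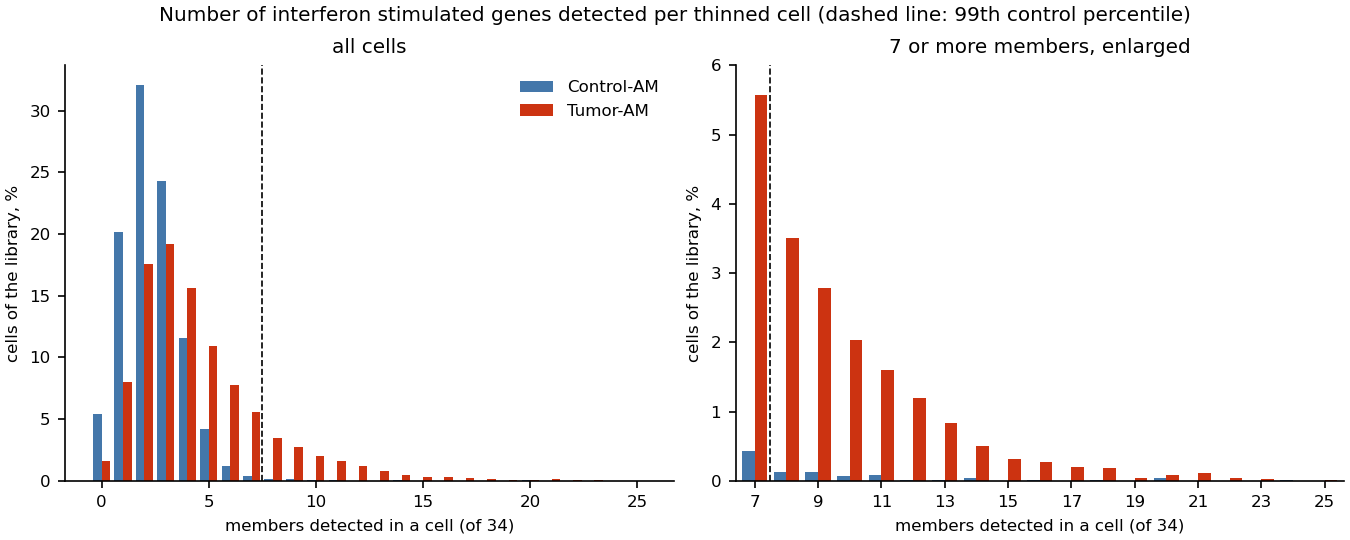
Percent of cells of each library by the number of members detected after thinning to 3800 UMIs, for all cells (left) and enlarged from 7 members on (right). The dashed line marks the 99th control percentile, above which lay 0.57% of control and 13.8% of tumor cells, without a gap between low and high cells.

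For each member the cells were then split by the number of the other 33 detected, so that a gene did not choose its own cells. The cut was 6 or 7 other members, and 13.5% to 19.3% of tumor cells and 0.54% to 0.98% of control cells lay above it. For the values of all genes, the cells were split once by the number of all 34 members detected, at a cut of 7. Those values are thus not like for like with the values of the members. In the cells at or below the cut, 29 of 34 members had a lower limit of the log2 ratio above 0, against 23.9% of 11604 genes. At least 2-fold higher were 20, against 3.03%. The median ratio of the members was 1.19 in these cells and 1.74 in all thinned cells, and that of all genes was −0.03 and −0.05. These cells still held up to 6 or 7 other members and made up most cells of both libraries, so the result does not describe cells with few members. The 5 without a lower limit above 0 were *Dhx58* (0.22), *Eif2ak2* (0.10), *Isg20* (0.22), *Ifi35* (−0.16) and *Ifi44*, which had 3 and 5 UMIs there. *Usp18* had 0 control and 48 tumor UMIs in these cells. It had no ratio, only a lower limit of 3.54, and was counted among the 20.

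How much of the difference went with the cells above the cut varied from gene to gene. It was measured as the share of the tumor minus control difference in CPM that was lost when those cells were left out of both libraries, a measure chosen after the data were seen. At least 50% was lost by 20 of 34 members, against 2.37% of the 2695 genes that were higher in tumor. The 2695 genes were split once, by the number of all members detected at a cut of 7, so the shares are not like for like. The cells left out were chosen for detecting other members, so a larger loss for members that rise together is partly built in. Nothing is read from the comparison with all genes. The median over the members was 54.9%. Most was lost by *Ifit2* (88.2%), *Ifit1* (82.7%), *Isg15* (79.6%), *Ifit3* (77.8%), *Rsad2* (74.2%), *Cmpk2* (72.8%) and *Oasl1* (72.0%), apart from genes whose difference was small, among them *Ifi35*, *Eif2ak2*, *Isg20* and *Dhx58*, and *Ifi44*. Least was lost by *Samhd1* (17.4%), *Ly6a* (21.4%), *Irf9* (24.4%), *Ly6e* (28.4%), *Stat2* (34.9%), *Ifi27l2a* (35.3%) and *Oas2* (40.8%). The cut was 7 other members for *Ifit2*, *Ifit3*, *Rsad2*, *Oasl1* and *Oas2*, and 6 for the other genes named. Places in these orders are thus not like for like between genes with different cuts. The value of *Ly6a* rested on few control cells, since 31 of its 47 control UMIs lay in cells with 7 or more other members, and none did once barcodes of other cell types were left out. Without the cells above the cut, *Isg15* went from a ratio of 2.02 to 0.93 (0.61 to 1.25), while *Ifi27l2a* went from 3.57 to 3.12 (3.02 to 3.23) and *Irf9* from 1.45 to 1.24. A large loss of the difference did not always go with a lower ratio. *Ifit3* had a ratio of 3.40 in all thinned cells and 3.70 (2.05 to 6.03) without those cells, on 3 and 42 UMIs. *Rsad2* had 4.60 and 5.03 (3.45 to 7.33), on 3 and 106 UMIs, and *Cmpk2* 3.82 and 3.24 (1.92 to 4.93). Over the alternatives the count of 20 ran from 8, at a lower thinning depth, to 26, with a cut at a lower percentile or with summed UMIs as score. By the related share of the excess found above the cut, 30 members had at least 50%, but so did 66.9% of all raised genes, and nothing is read from it.

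**Figure D3:**
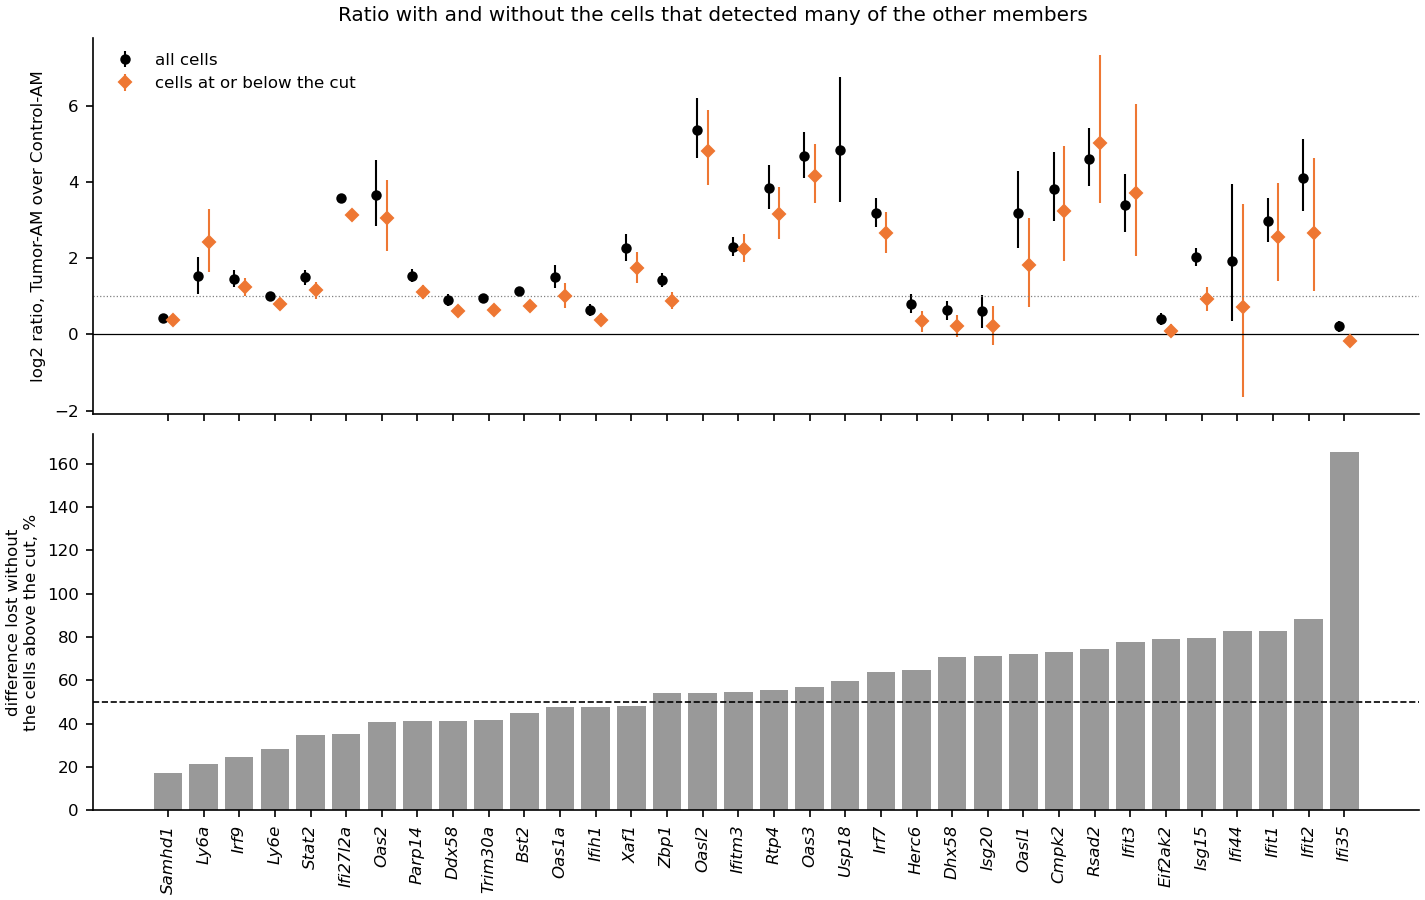
Upper panel, log2 ratio of each member in all thinned cells and in the cells at or below the cut, with exact 95% counting intervals (dotted line, 2-fold). *Usp18* has no second point because it had 0 control UMIs there. Lower panel, percent of the difference lost without the cells above the cut, from 17.4% for *Samhd1* to over 50% for the 20 members whose bars pass the dashed line; for *Ifi35* it exceeds 100% because its ratio turned to −0.16.

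The same cells were also described in 4 steps by the number of other members detected, a split made after the data were seen, in which the last step is close to the cells above the cut. In the cells with at most 1 other member, *Ifi27l2a* was at 31.5 CPM in control and 114 CPM in tumor, a log2 ratio of 1.85 (1.59 to 2.12). *Stat2* was at 10.5 and 27.3 CPM (1.38, 0.86 to 1.89) and *Irf9* at 8.06 and 20.3 CPM (1.33, 0.74 to 1.93). *Isg15* was at 6.50 and 4.29 CPM there (−0.60, −1.72 to 0.41), on 36 and 11 UMIs. *Ifit3* had 1 control UMI and 2 tumor UMIs. In this step 9 of 34 members had a lower limit above 0, against 12.8% of 11604 genes. In the step of 2 to 3 other members 22 had one, against 20.9% of genes, and in that of 4 to 6 other members 28, against 13.9%. Genes outside the list were split by the number of all members detected, so their shares are not like for like. Every step chose cells of both libraries by the members they detected, which by itself brings the levels together. Nothing is read from the counts of these steps. *Isg15* reached 17.6 CPM in tumor at 4 to 6 other members and 137.4 CPM at 7 or more.

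The cells with 7 or more other members were chosen in both libraries for detecting many members, which by itself brings the levels of the libraries together. The counts and ratios of this step are given as a description, and nothing is read from them. These cells numbered 33 to 56 in control, depending on the member. Here 3 members had a lower limit above 0, against 3.34% of genes, and 5 an upper limit below 0, against 7.0%. *Ifi27l2a* was at 552.0 CPM in 41 control cells and 1510 CPM in 1013 tumor cells (1.45, 1.15 to 1.78), *Oasl2* at 23.9 and 98.2 CPM (2.04, 0.80 to 3.67) and *Oas3* at 47.8 and 109.6 CPM. The control cells were higher for *Isg15*, at 283.0 and 137.4 CPM (−1.04, −1.43 to −0.63), and for *Ifit1*, *Isg20*, *Ifitm3* and *Ly6a*. Of the 32 control cells above the cut, 5 were of other cell types by their markers. With such barcodes left out, *Ifitm3* (0.14, −0.55 to 0.94) was no longer lower in tumor and *Ly6a* had 0 control UMIs. The ratios there were −1.01 for *Isg15*, −1.24 for *Ifit1*, 1.79 for *Ifi27l2a* and 1.91 for *Oasl2*.

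**Figure D4:**
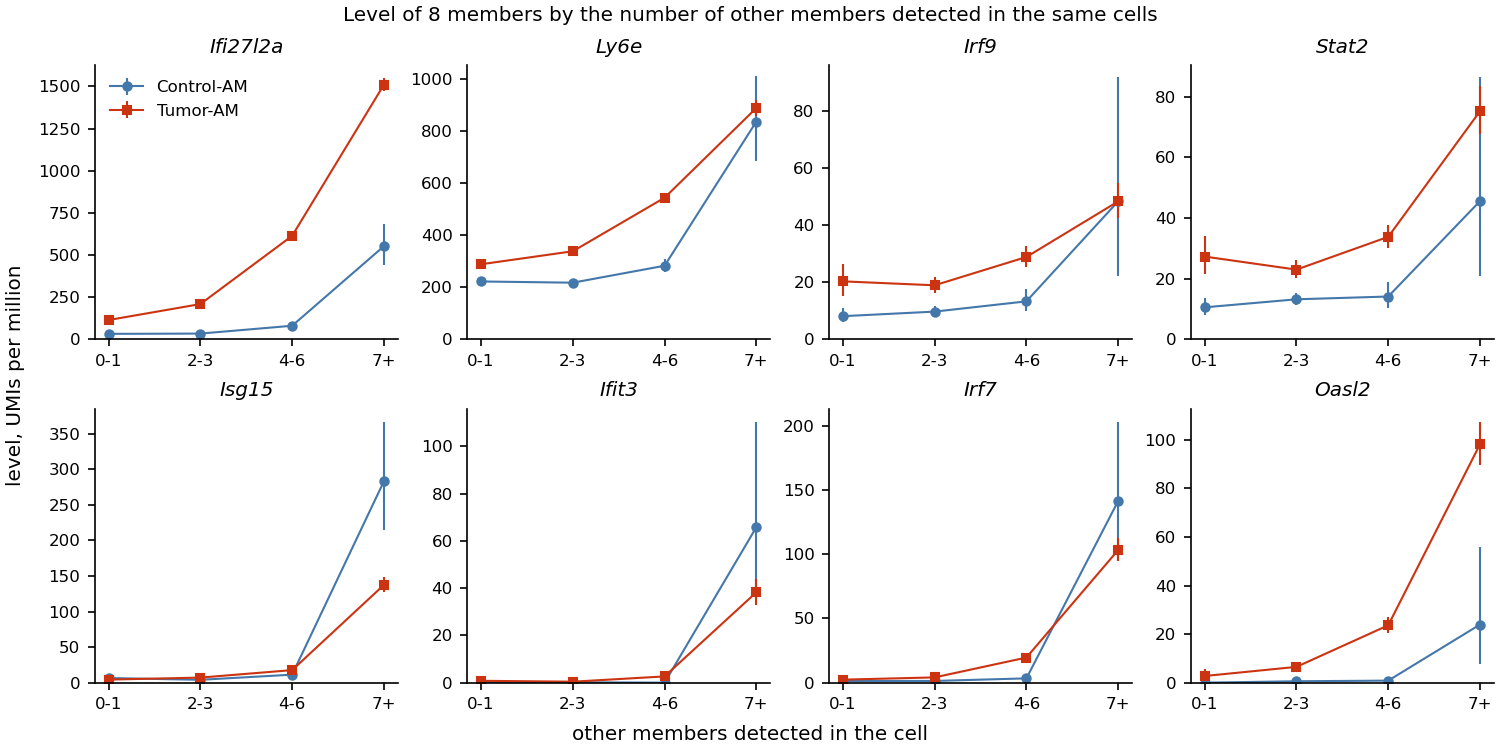
Level in UMIs per 1000000 UMIs of 8 members in both libraries, by the number of other members detected in the same cells. Bars are exact 95% Poisson intervals. *Oasl2* at 0 to 1 and *Ifit3* at 4 to 6 other members had 0 control UMIs and are drawn without a bar. *Ifi27l2a* and *Oasl2* lie higher in tumor in every step, whereas *Isg15* reaches 283.0 CPM in the few control cells and 137.4 CPM in the tumor cells of the last step.

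In the tumor library the members also went with the number of UMIs of the cell. From the quartile of tumor cells with the fewest UMIs to the quartile with the most, 33 of 34 members were higher in CPM, against 38.4% of 12936 genes, and 20 at least 2-fold, against 5.39%. In control 13 of 34 members were higher, against 38.4% of genes, a share near that of all genes, and 0 were at least 2-fold higher, against 3.7%. *Isg15* was at 15.5, 17.97, 31.3 and 79.2 CPM over the 4 quartiles of the tumor library and at 7.47, 5.68, 9.56 and 10.4 CPM in control. *Ifi27l2a* was at 230.8, 347.4, 524.3 and 872.7 CPM in tumor. *Samhd1* was the exception, at 358.0 CPM in the first and 282.6 CPM in the last. Tumor cells above the cut had a median of 11476 UMIs and those at or below it 8433. The share with a high doublet score was 4.61% above and 6.07% below the cut.

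Cells were also grouped into 17 clusters, A to Q by size, without using the members or other interferon genes. In the 14 with at least 50 cells of each library, 23 of 34 members had a ratio above 0 in every one, against 2.96% of all genes, and 4 had a lower limit above 0 in every one (*Ifi27l2a*, *Oasl2*, *Stat2* and *Ly6e*), against 0.425%. The count of 23 was 14 without the correction between libraries. *Ifi27l2a* ran from 1.77 (1.58 to 1.97) in cluster B, led by *F13a1* and *S100a6*, to 4.29 in cluster F, led by *Neat1*. *Stat2* ran from 0.70 (0.26 to 1.15) to 2.03 and *Ly6e* from 0.42 to 1.68. In cluster L, led by *Slc40a1* and *Hmox1*, *Irf7* (−0.67, −2.08 to 0.52) and *Ifit1* were not higher in tumor, and *Ifitm3* had 42 control UMIs and 1 tumor UMI.

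The tumor cells above the cut were spread unevenly over the clusters. Cluster J, led by *C1qb*, *Cxcl9*, *Apoe* and MHC class II genes, had 39.9% (34.6 to 45.3) of its 336 thinned tumor cells above the cut, and 6.09% (2.48 to 12.1) of its 115 control cells. It held 14.0% of the tumor cells above the cut. The share was 16.9% (15.5 to 18.3) in cluster B, which held 47.4% of them and 38.7% of thinned tumor cells. It was 18.5% in cluster D, led by *Mmp12*, and 3.03% (2.004 to 4.37) in cluster A, led by lipid metabolism genes such as *Fabp1*. In cluster O, led by *Cenpf*, it was 19.0% (9.87 to 31.4) of 58 cells. In the smallest clusters, P and Q, led by *Dcn* and *Igkc*, 5 of 17 and 2 of 4 thinned tumor cells lay above the cut. Clusters B and J had 95 and 120 control cells, 2806 and 341 tumor cells, so what sets B apart may belong to the tumor library alone. In the control cells of cluster J some members were well above their level in the control library as a whole, whereas *Stat2* (12.6 against 13.3 CPM) and *Eif2ak2* (28.2 against 25.61 CPM) were near it. *Isg15* was at 73.5 and 142.6 CPM (0.96, 0.65 to 1.28), *Irf7* at 25.2 and 129.3 CPM (2.36) and *Ifi27l2a* at 160.3 and 1337 CPM (3.06). Without cluster B 24 members were at least 2-fold higher, and without cluster J 25. Without J the ratio of *Rsad2* was 5.51, since J held 34 of its 64 control UMIs.

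**Figure D5:**
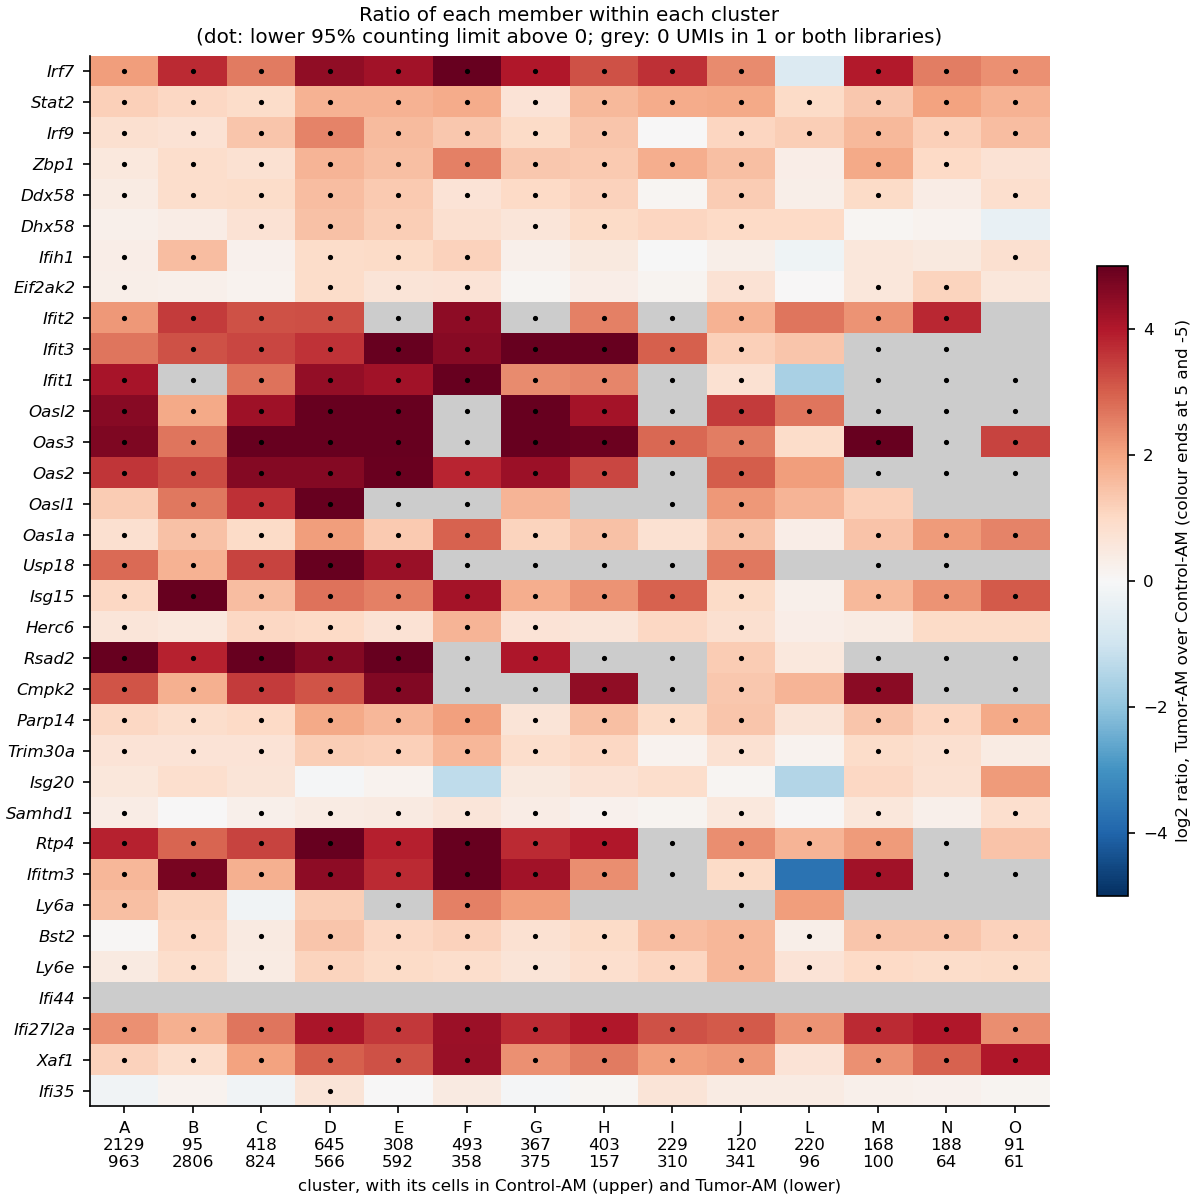
Log2 ratio of tumor over control for each of the 34 members (rows) within each of the 14 compared clusters (columns, with cell numbers). Dots mark a lower 95% counting limit above 0, and grey marks 0 UMIs in 1 or both libraries. *Ifi27l2a*, *Oasl2*, *Stat2* and *Ly6e* carry a dot in all 14, and cluster L holds the lower values of *Irf7*, *Ifit1* and *Ifitm3*.

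Other genes of the pathway were read from lists, which share some genes. Of 15 interferon genes, 11 had no UMI in either library, *Ifnb1* among them, and the list had 23 control UMIs and 5 tumor UMIs. *Ifnab* had 17 control and 2 tumor UMIs, *Ifnk* 5 and 0, *Ifng* 1 and 2, and *Ifna2* 0 and 1. With 3 UMIs taken as the limit that a count of 0 allows, this is 0.0463 CPM in control and 0.0436 CPM in tumor. Of all genes tested 4.3% were at least 2-fold higher, the share to set beside each list. None of 10 receptor and signalling genes was at least 2-fold higher, and their median log2 ratio was 0.39. Among them, *Irf1* had a ratio of 0.87 and *Ifngr2* of 0.67. *Ifnar1* was at 17.6 and 24.1 CPM (0.45) and *Ifnar2* at 78.8 and 101.5 CPM (0.37). Of 14 genes of nucleic acid sensing and interferon induction that passed the minimum of 10 UMIs per library, used for all lists, 1 was at least 2-fold higher (*Ikbke*, 1.27), with *Tlr3* at 0.62 and *Irf8* at 0.43, and their median was 0.01.

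Of 8 negative regulators, 3 were at least 2-fold higher. These were *Socs3* (2.18), *Nlrc5* (1.92) and *Socs1* (1.47), of which the SOCS genes encode inhibitors of JAK kinases. Of 54 further interferon stimulated genes, 24 were at least 2-fold higher, with a median of 0.86. *Slfn5*, a Schlafen family gene, was at 1.71 and 68.7 CPM (5.33, 5.06 to 5.61), and was followed by *Ifi209* (4.46) and *Ms4a4c* (4.05). Of 18 genes known as targets of interferon gamma, which share many targets with type I interferon, 12 were at least 2-fold higher, with a median of 1.34. *Iigp1*, a GTPase, had a ratio of 3.96 on 10 and 165 UMIs, the chemokine *Cxcl9* was at 4.16 and 23.1 CPM (2.47) and *Gbp6* had 2.39. *Cxcl10* was at 4.67 and 16.2 CPM (1.80). Of 13 genes that respond to dissociation and stress, 3 were at least 2-fold higher (*Ier3* 1.68, *Hspa1b* 1.55 and *Hspa1a* 1.23). The lists, like the members, were made with earlier results of these data known. The control genes lay near the median of all genes, with *Actb* at −0.07, *Gapdh* at −0.16, *Ptprc* at −0.12, *Hprt* at −0.16 and *Ppia* at −0.27.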

How the data were processed

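Single-cell libraries were made by the authors with the 10x Genomics 3′ chemistry, and UMIs were counted per gene and barcode with Cell Ranger (version 4.0.0 in the submitters' processing notes, a later release in the methods) on mm10. The deposited counts are raw UMI counts, before the authors' filters. The members and lists were chosen with earlier results of these data known. Levels are UMIs summed over kept cells per 1000000 UMIs (CPM) with exact Poisson intervals. Ratios carry exact conditional binomial intervals and shares exact binomial (Clopper-Pearson) intervals, all at 95%, which cover counting error only. Genes needed 10 UMIs in each library, but counts of members after thinning covered all 34. Of these, 32 had 10 thinned UMIs in each library, and *Usp18* and *Ifi44* had 4 each in control. Named were all members, detected interferon genes, a few genes chosen by name such as *Ifnar1* and *Actb*, and the 3 largest ratios of each list, of which 1 is not reported here. Cells were thinned without replacement. Scrublet called 0 doublets by its automatic threshold and was taken not to have worked. Doublets were therefore kept, and the highest 6% of scores (274 and 410 cells) were left out as an alternative. Leiden clusters (scanpy 1.11.5, leidenalg 0.10.2) used a mutual nearest neighbour correction. Scripts used Python 3.11.15, numpy 2.4.6 and scipy 1.17.1 and were tested on simulated data. Symbols came from a table of Ensembl IDs, and gene positions were not compared between builds. No test between conditions was run, and the alternatives tried are given in the closing section.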

Additional observations from a re-analysis of the deposited data

How the results depend on the processing

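No paired analysis was possible because there was 1 library per condition, and for the same reason no replicate could be left out. Over the alternatives, 23 to 26 members were at least 2-fold higher and 28 to 31 had a lower limit above 0 below the cut. No member's ratio changed sign. Averaging each cell's own CPM moved the median log2 ratio of the members to 1.49 and 20 of 34 single ratios beyond their intervals, and *Ly6e* and *Trim30a* fell under 2-fold. The tumor share above the cut, 13.8% at the main cut of 7 members, moved under every setting named next. The cut or the thinning depth often changed with the setting, so these moves are not those of 1 choice. At a cut of 6, all cells of the main setting gave 19.3%. With that cut the share was 18.5% without the highest Scrublet scores (3700 UMIs per cell) and 19.7% without other cell types (3900 UMIs). It was 19.3% without shared barcode sequences and 18.9% with another seed of the thinning, also at a cut of 6. Stricter limits on genes and mitochondrial UMIs gave 18.1% at a cut of 7, with 4600 UMIs per cell. Cuts at a lower and a higher control percentile gave 27.1% and 10.3%. Summed UMIs as score gave 25.2%, and a lower thinning depth 10.3% at a cut of 5. Leaving out cluster B or cluster J was tried only once the main results were known, and both gave a cut of 6. The share was 12.2% without B (3200 UMIs per cell) and 17.0% without J (3800 UMIs per cell). Both were below the 19.3% of all cells at that cut, though the depth without B also differed. Members with at least 50% of their excess above the cut numbered 17 at the higher percentile and 15 at the lower depth, and up to 34 elsewhere. Members that lost at least 50% of their difference numbered 13 and 8 there, and up to 26 elsewhere. Members higher in every cluster numbered 14 without library correction and 20 to 28 under the other cluster settings. Depth limits genes such as *Ifi44* and *Usp18*, with 5 and 15 control UMIs.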

Other observations

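In the tumor library, the cells above the cut also differed from the other cells in genes outside the members. *Cxcl9* was at 64.8 CPM above and 8.75 CPM at or below the cut, a log2 ratio of 2.89 (2.61 to 3.17), *Cxcl10* at 45.7 and 8.31 CPM (2.46) and *Iigp1* at 8.54 and 0.35 CPM (4.60, 3.45 to 5.93). *Gbp2* was at 74.7 and 23.9 CPM (1.64). *Apoe*, the lipid carrier, was at 926.7 and 364.8 CPM (1.34, 1.29 to 1.40) and *Spp1*, which encodes osteopontin, at 3899 and 1901 CPM (1.04). The scavenger receptor *Marco* was lower above the cut, at 65.3 and 236.6 CPM (−1.86, −2.05 to −1.67), as were the heat shock gene *Hspa1b* (−1.10) and *Siglecf* (−0.55). *Chil3* (−0.14) and *Actb* (0.14) differed little. Cells above and below the cut were spread unevenly over the clusters: cluster J, with *Apoe* at 3895 CPM and *Cxcl9* at 260.1 CPM in its tumor cells, held 14.03% of the tumor cells above the cut and 4.84% of all thinned tumor cells. Without cluster J, an alternative chosen after seeing the data, the ratio was 3.36 for *Cxcl9*, 5.06 for *Iigp1*, 1.49 for *Apoe*, 1.13 for *Spp1* and −1.99 for *Marco*. *Cxcl9* was then at only 24.4 CPM above and 2.37 CPM at or below the cut, and *Iigp1* rested on 19 and 4 UMIs. The part of the other clusters in these differences was not tested. Genes were named here after their values were seen, cells of 1 library are not replicates, and the intervals cover counting error only.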
